A study of Mus musculus with 96 samples.

Results

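Autophagy machinery genes encode the proteins that form autophagosomes, and 39 of them were selected by gene name from the 56748 genes of a count table. The members fall into the ULK initiation complex (5 genes), the class III PI3-kinase complex (6), the ATG9, ATG2 and WIPI proteins (5), the conjugation enzymes for ATG12 and ATG8 (7), the ATG4 proteases (4), the ATG8 family (5), cargo receptors (5) and the transcription factors TFEB and TFE3 (2). All 39 were present, and all 39 passed the filter on low counts in every comparison. The members were chosen with earlier results of these data known.

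In macroautophagy, a kinase complex and a lipid kinase complex start a cup of membrane that grows by lipid transfer, and ubiquitin-like ATG8 proteins are coupled to its lipids to recruit cargo through receptors. The closed autophagosome then fuses with a lysosome, where its content is broken down. Fasting is known to start the process in liver and skeletal muscle, where it supplies amino acids and clears mitochondria, and TFEB and TFE3 switch on many of its genes.

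The study asked how organs adapt to intermittent fasting, with RNA-seq of poly-A RNA from liver, skeletal muscle and cerebral cortex. Male C57BL/6 mice on normal chow were fed ad libitum (AL, mice 1 to 8) or fasted for 16 h each day (IF, mice 9 to 16) for 4 months from 6 weeks of age. The paper states that IF mice were sampled at the end of their fasting window, and that mice were perfused with cold saline. Effects of the last fast and of 4 months on the diet cannot be told apart. The table also holds female mice, labelled AL (mice 25 to 32) or IF (mice 33 to 40), whose ages and fasting schedule the labels do not state. Each mouse gave 1 library per tissue, so a group has 8 mice, and each library held between 26097314 and 49838004 counts on genes.

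The cortex library of AL mouse 1 goes against its label. It held 213.3 CPM (counts of a gene scaled to a common total per library) of Xist, expressed from the inactive X chromosome of females, and no count of the Y-linked genes Ddx3y, Uty, Kdm5d and Eif2s3y, although the label gives a male. That library was left out, which leaves 7 AL mice in the male cortex, and the remaining libraries matched the sex of their labels. Among cortex libraries its highest Pearson correlation was with that of female IF mouse 40 (0.9968), which was kept. An exchange of samples was not tested. Since mice 1-16 are male and mice 25-40 female, sex and mouse set cannot be told apart.

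The tissue labels were checked against marker genes. Hepatocyte markers summed to between 51867.9 and 116380.3 CPM in liver, and fibre markers to between 115863.8 and 150697.3 CPM in muscle. Neuron markers summed to between 4992 and 7126 CPM in cortex, and lay at no more than 1.27 CPM in muscle and 16.4 CPM in liver. In cortex, the hepatocyte list ranged from 4.69 to 4272 CPM, with Ttr as its most abundant gene. These are bulk tissues, so fewer cells of a type and less RNA per cell cannot be told apart.

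In AL mice of the male set, the most abundant members were genes of the ATG8 family and Sqstm1. Levels of different genes were set side by side per kilobase of gene length. A single length was given per gene, whichever of its transcripts a tissue makes, so the order is rough. On that scale Sqstm1 (81.6 CPM per kb), Gabarap (68.4) and Gabarapl1 (52.1) led in liver, and neighbours in this order overlapped between mice. Map1lc3a came next in liver at 25.8 CPM per kb, below every mouse's value for Gabarapl1. In muscle the highest members were Map1lc3a (286 CPM per kb), Sqstm1 (248) and Gabarap (106), of which the 2 highest overlapped. Cortex had Gabarapl1 at 397 CPM per kb, Map1lc3a at 288 and Sqstm1 at 174, and none of these neighbours overlapped. The lowest members per kilobase were Atg9a in liver (0.937), Atg16l2 in muscle (0.822) and Atg2b in cortex (1.27).

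Across tissues, 23 of the 39 members had their highest mean CPM in cortex, 15 of them without overlap with the next tissue, while 8 were highest in liver (5 without overlap) and 8 in muscle (5 without overlap). These levels are a description with no test. Gabarapl1, which encodes an ATG8 protein, averaged 799.5 CPM in cortex, 7.63 times its level in liver and 14.6 times that in muscle. Tfeb averaged 135.5 CPM in muscle, 7.49 times its level in liver. The protease gene Atg4c averaged 29.99 CPM in cortex against 4.57 in muscle and 4.34 in liver, where the mice of muscle and liver overlapped. Map1lc3a averaged 30.5 CPM in liver, where cortex held 11.1 times as much. The receptor gene Optn averaged 11.7 CPM in cortex and 82.9 in liver, and Atg16l2 6.96 in muscle and 53.7 in liver, with no overlap between these tissues in either case.

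The female AL mice had 19 members highest in cortex, 9 in liver and 11 in muscle. Gabarapl1 in cortex averaged 838.6 CPM there, and Tfeb in muscle 136.9 CPM. In liver, Gabarapl1 averaged 201 CPM in female and 105 CPM in male AL mice, a difference that was not tested.

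**Figure D1:**
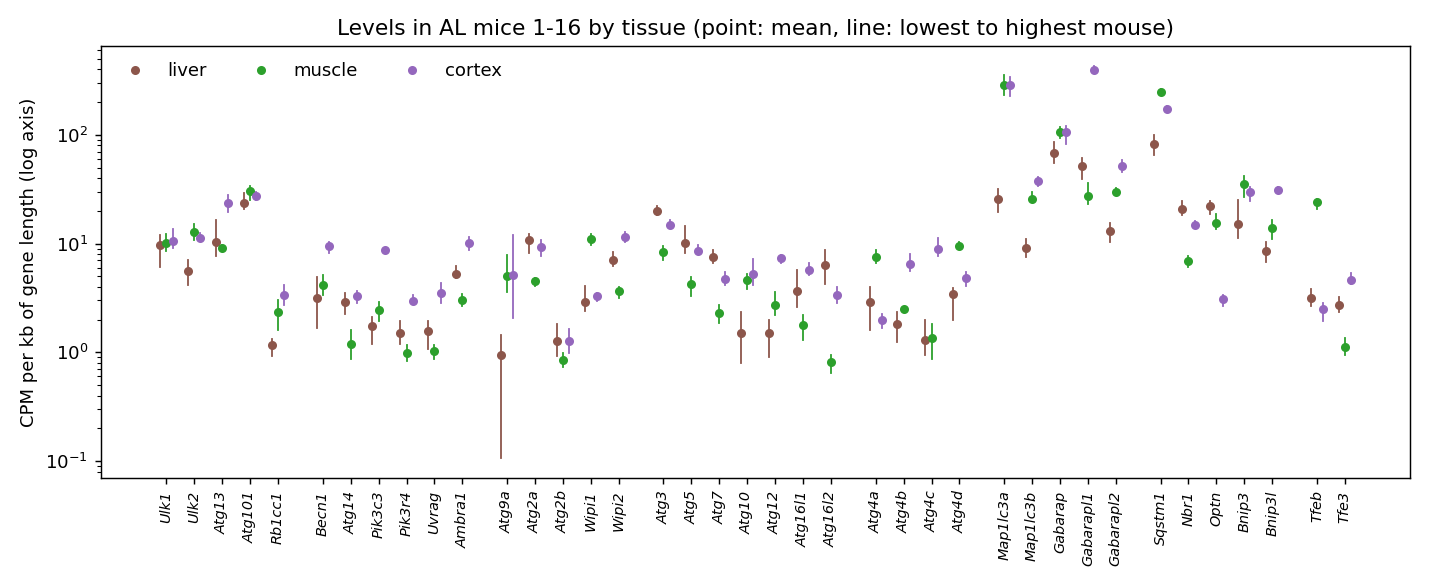
Level of each member in AL mice 1-16, in CPM per kilobase of gene length on a log axis, with the point at the mean and the line from the lowest to the highest mouse, for liver (8 mice), muscle (8) and cortex (7). The highest point is Gabarapl1 in cortex at 397 CPM per kb, and the longest line is that of Atg9a in liver, from 0.106 to 1.43 CPM per kb.

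Members varied between mice of a group less than genes at large. The coefficient of variation over the 8 AL livers had a median of 16.4% over the members and 24.4% over all genes tested, and in AL cortex of the male set 9.33% against 15.3%. Higher counts vary less between libraries, and levels were not matched here. Atg9a had the highest coefficient of all members in AL cortex, at 67.8%, with single mice from 11.9 to 69.1 CPM. Its locus is shared, on the same strand, with the gene model Gm29253, which holds 17.1% of its 100-base windows, and its count is therefore uncertain. Gm29253 itself never exceeded 0.134 CPM.

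The diets were compared within each tissue and mouse set with edgeR's quasi-likelihood test on the counts. A member passed, and is said to have risen or fallen in IF mice, at a Benjamini-Hochberg adjusted p under 0.05 over all genes tested. Changes are log2 fold changes of IF over AL with their standard error, after TMM scaling. In male liver that scaling alone places them about 0.10 below the ratio of plain CPM, since its mean log2 factor was -0.05 in AL and 0.05 in IF mice. In female liver the factor was 0.019 in AL and -0.019 in IF mice. In muscle it was -0.036 in AL and 0.036 in IF males, and 0.035 in AL and -0.035 in IF females. Relative to plain CPM, scaling thus lowered male and raised female changes in both tissues, which shifts female minus male differences upward.

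In male liver the largest rises with fasting were those of Map1lc3a, Gabarapl1 and the mitochondrial receptors Bnip3 and Bnip3l. Falls were led by the conjugation enzyme gene Atg3 and by Nbr1, and other conjugation genes went both ways. Of the 39 members 27 passed, where 44.6% of all 16204 genes tested did. Of these, 20 rose, where 23.5% of all genes did, and 7 fell, where 21.1% did. In 10 members all IF mice lay above all AL mice and in 2 all lay below, where 14.6% of all genes were free of overlap. An unadjusted p under 0.05 gave 28 members, beside 51.4% of all genes. The median change of the members was 0.33, and that of all genes 0.06. The median summed CPM of the 39 members was 1755.5 in AL mice (1565.4 to 2028.6) and 2409.8 in IF mice (2155.5 to 2559.9), a description without a test.

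Blood cell transcripts moved with diet in the same livers. The 5 erythrocyte markers, all above 0 and led by Hba-a1, summed to 362 to 956 CPM in AL mice (median 569) and 667 to 6879 in IF mice (median 2070.4), and their mean log2 CPM differed by 1.63 (adjusted p = 0.0222, exact permutation test). With that score as a covariate 21 members passed, 17 higher and 4 lower, beside 4013 of all genes (2089 higher and 1924 lower, from 7234 without it), and Atg101, Atg14, Pik3r4, Wipi1, Atg7, Gabarap and Sqstm1 were no longer called. With 3 IF livers within the AL range of the score, a choice made after seeing the data, 20 passed, 16 higher and 4 lower, beside 5108 of all genes (2300 higher and 2808 lower), and Ulk1, Becn1, Atg16l1, Pik3r4, Wipi1, Atg7, Gabarap and Sqstm1 missed the threshold, while Atg101 and Atg14 were called. The 4 endothelial markers, led by Kdr, summed to a median of 55.5 CPM in AL and 84.9 CPM in IF livers (adjusted p = 0.0137, exact permutation test), and the 7 adipocyte markers to 38.1 and 23.0 CPM, with a lower score in IF mice (adjusted p = 0.0137, exact permutation test). The part of these 2 lists in the members' changes was not tested.

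In male muscle fewer members moved, in both directions. Of the 39, 10 passed, beside 23.0% of 15025 genes, a share near that of all genes and so not a result about the members. The 6 that rose stand beside 11.5% of all genes, and the 4 that fell beside 11.6%. Groups did not overlap for 3 members, beside 4.17% of all genes. With an unadjusted p under 0.05 the count was 13 members, beside 35.3% of all genes. The members' median change was -0.01 and that of all genes 0.01. Bnip3 rose most and Atg4d fell most.

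Fat cell transcripts moved with diet in these muscles. The 7 adipocyte markers, none at 0 and led by Fabp4, summed to 166 to 749 CPM in AL mice (median 320.2) and 418 to 3839 CPM in IF mice (median 1558), with a score difference of 1.89 (adjusted p = 0.0484, exact permutation test). With the score as a covariate 12 members passed, beside 2989 of all genes against 3463 without it. Of these 12, 4 were not called before, and Gabarapl1 (adjusted p = 0.0518) and Ulk1 (adjusted p = 0.0553) no longer passed. The 6 fibre markers, led by Acta1, summed to a median of 135341.1 CPM in AL and 130664.1 in IF mice (score difference -0.13, adjusted p = 0.0137, exact permutation test). The 4 genes of the astrocyte list, led in muscle by Aqp4, summed to 12.2 and 20.9 CPM (adjusted p = 0.0205, exact permutation test). What these lists contribute to the members' changes was not tested beyond the covariate.

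In male cortex, Wipi2, Ambra1 and Uvrag rose. These 3 of 39 stand beside 7.21% of 18462 genes called, 3.79% called higher and 3.43% called lower, so the share is near that of all genes. No member was free of overlap between diets, beside 1.01% of all genes. The median change was 0.09 for the members and -0.00 for all genes. The calls rest on few libraries and settings: 0 members passed with the omitted library of AL mouse 1 kept (294 of all genes), 0 without AL mouse 2 and IF mouse 10 (498) and 7 without AL mouse 7 (1906). DESeq2 called 7 (2259 of all genes) and RLE size factors 5 (1384), against 3 and 1332 in the fit used. At an unadjusted p under 0.05 there were 14 members, beside 23.8% of all genes.

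Oligodendrocyte transcripts also differed in that cortex set. The 5 markers, none at 0 and led by Mbp, summed to 4308.9 to 6706.1 CPM in AL mice (median 5215.5) and 5847 to 9762 CPM in IF mice (median 7870.4), with a score difference of 0.48 (adjusted p = 0.0222, exact permutation test). With that score as a covariate no member passed, and no gene of the table did either. The log2 fold changes were 0.28 before and 0.27 after for Wipi2, 0.29 before and 0.20 after for Ambra1, and 0.27 before and 0.17 after for Uvrag.

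In the female mice no member passed in any tissue by edgeR or DESeq2. The background was likewise low, with 0% of 15938 genes called in liver, 0.00653% of 15308 in muscle and 0.0109% of 18403 in cortex. At an unadjusted p under 0.05, edgeR gave 0 members in liver, 7 in muscle and 5 in cortex, beside 5.77%, 10.7% and 11.2% of all genes. No member was free of overlap between diets, beside 0.0188%, 0.0915% and 0.0435% of all genes. Members' median changes were 0.00 in liver, -0.01 in muscle and 0.01 in cortex.

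The difference between the responses was tested directly, as the female response minus the male response. In liver 16 members differed, 4 upward and 12 downward, beside 23.7% of 17658 genes. With RLE size factors 3 members went upward and 12 downward, beside 2250 and 1938 of all genes. In muscle 7 differed, 3 upward and 4 downward, beside 14.2% of 16346 genes. RLE size factors also gave 3 and 4, beside 1211 upward and 1113 downward of all genes. In cortex none did by edgeR, beside 2.03% of 19547 genes, with 2 at an unadjusted p under 0.05 and none with RLE size factors. The response in muscle minus that in liver of the same mice differed for 20 members in the male set, beside 30.3% of 18222 genes. Of these, 5 went upward and 15 downward. RLE size factors also gave 5 and 15, beside 2734 upward and 2821 downward of all genes. In the female set it differed for none, beside 0% of 18311 genes, with 1 member at an unadjusted p under 0.05 and none with RLE size factors. For the counts at an unadjusted p in this paragraph, the share of all genes at that threshold is not given. Marker scores were not used as covariates in these tests of differences. Blood cell transcripts in liver and fat cell transcripts in muscle, described above, were therefore not accounted for in them.

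**Figure D2:**
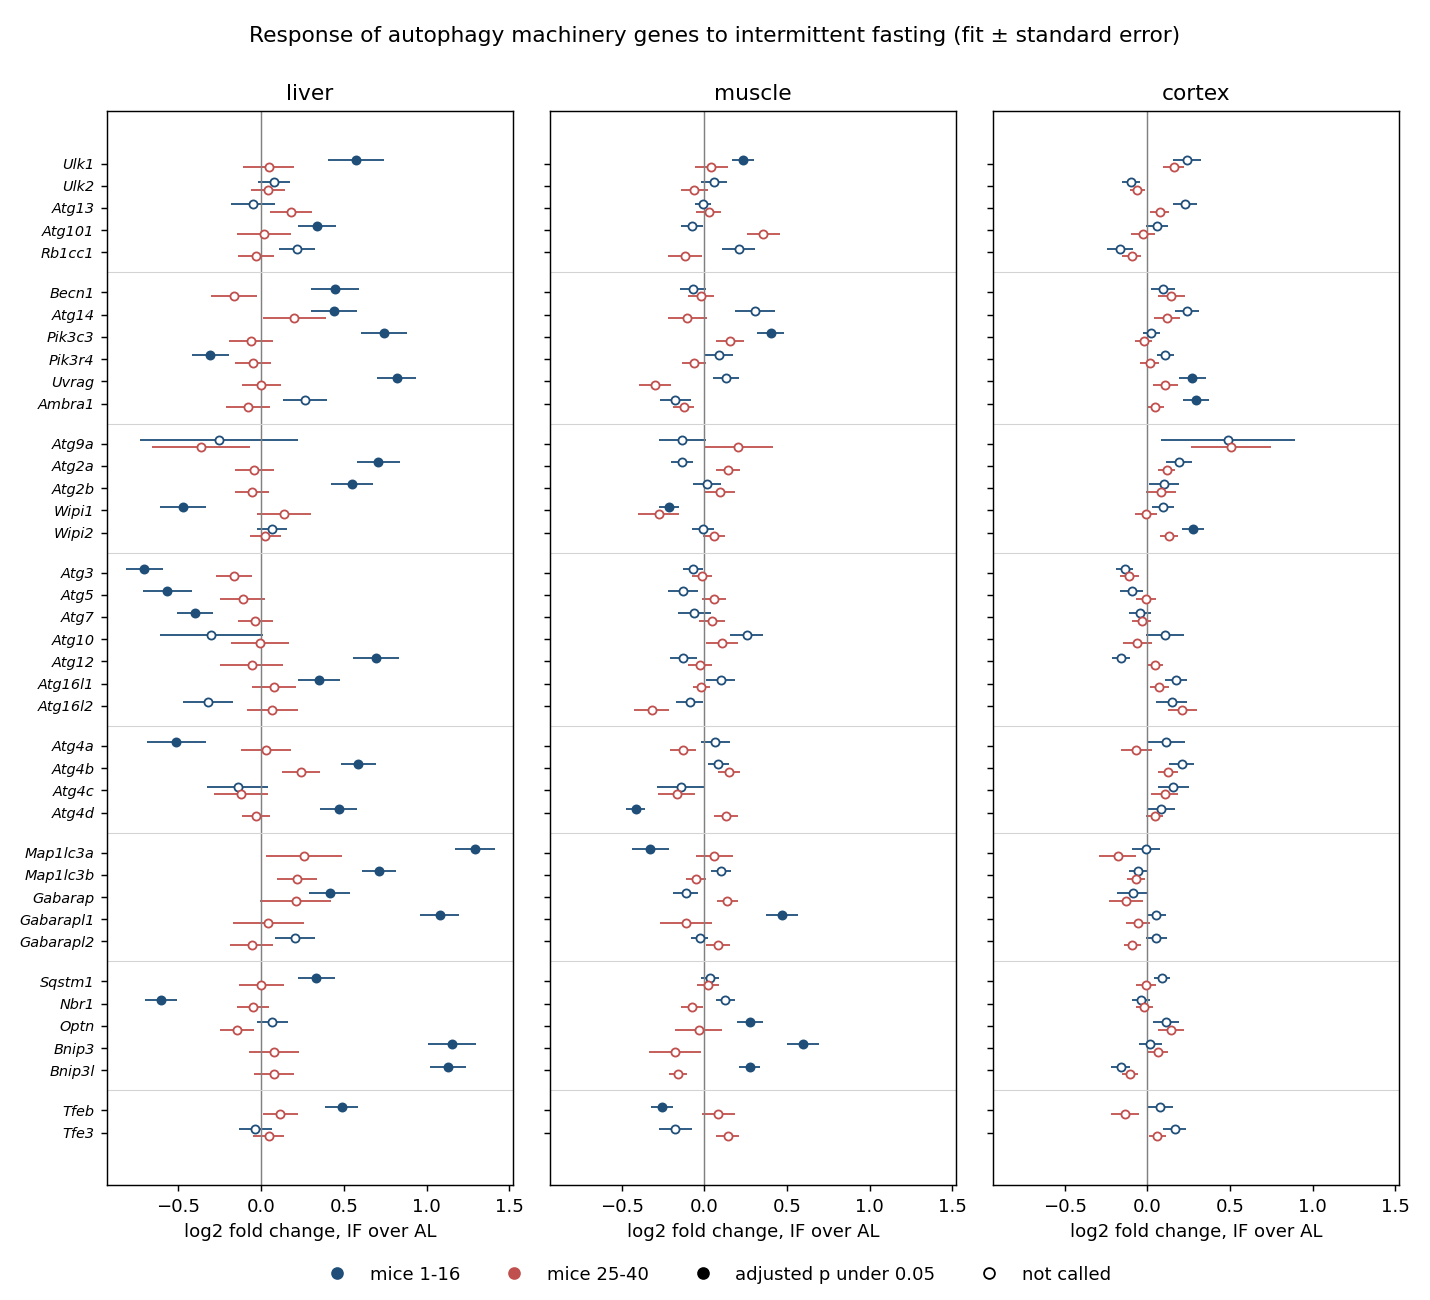
Log2 fold change of each member, IF over AL, with its standard error as a line, in liver, muscle and cortex of mice 1-16 (blue) and mice 25-40 (red), where a filled point passed the test. In liver of mice 1-16 the values run from -0.71 for Atg3 to 1.29 for Map1lc3a, and no point of mice 25-40 is filled.

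The ULK complex starts autophagosome formation through its kinase activity when nutrients are scarce. In male liver 2 of its 5 genes rose, where 23.5% of all genes did. Ulk1, the kinase itself, lay at 39.5 to 78.2 (median 68.9) CPM in AL livers and 56.4 to 178 (median 95.96) in IF livers, a change of 0.57 ± 0.17 (adjusted p = 0.00878). The groups overlapped, and IF mouse 13 stood alone at the top. Atg101, a regulatory subunit, was measured at 33.6 to 46.6 (median 36) CPM in AL and 43.9 to 61.3 (median 48.7) in IF livers (0.34 ± 0.11, adjusted p = 0.0187), with the lowest IF mouse below the highest AL mouse. Atg101 was not called with the erythrocyte covariate (adjusted p = 0.123), and Ulk1 was not called with the 3 IF livers (0.0555). For the paralog Ulk2, the subunit Atg13 and the scaffold Rb1cc1, values in male liver ranged from -0.05 to 0.22 and did not pass.

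In male muscle Ulk1 also rose, with 55.9 to 79.7 (median 64.2) CPM in AL and 73.1 to 93.2 (median 79.6) CPM in IF mice (0.23 ± 0.07, adjusted p = 0.0144), with overlap between the diets. That call was lost with the adipocyte covariate and with 3 IF muscles within the AL range of the adipocyte score, a choice made after seeing the data. Atg101 in muscle lay at 40.3 to 54.2 (median 49.2) CPM in AL and 43.2 to 54.5 (median 47.3) CPM in IF males, close to each other. Female AL muscles held 32.8 to 46.6 (median 37.7) CPM of Atg101 and IF muscles 37.3 to 53.1 (median 51.1) CPM, a change of 0.36 ± 0.10 that missed the threshold (adjusted p = 0.247). The female response exceeded the male one by 0.45 ± 0.13 (adjusted p = 0.0139), a difference in the direction of the muscle scaling given above. In both sets single mice of the diets overlapped.

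Within the class III PI3-kinase complex, which marks the forming membrane with phosphatidylinositol 3-phosphate, 4 of 6 genes rose, where 23.5% of all genes did, and 1 fell, where 21.1% did, in male liver. Uvrag, which takes the place of Atg14 in complexes acting on endosomes and maturing autophagosomes, was at 9.73 to 17.4 (median 14.3) CPM in AL and 21.4 to 37.01 (median 25.9) CPM in IF livers, a change of 0.82 ± 0.12 (adjusted p = 3.7e-06). Pik3c3, the catalytic subunit, was at 5.36 to 9.35 (median 8.12) CPM in AL and 11.1 to 18.8 (median 12.7) CPM in IF livers, a change of 0.74 ± 0.14 (adjusted p = 0.000108). Every IF liver was above every AL liver for both genes, and IF mouse 13 was the highest for Uvrag. Becn1, the scaffold of the complex, rose, with 11.8 to 34.6 (median 20.96) CPM in AL and 20.6 to 42.4 (median 31.2) CPM in IF mice (0.45 ± 0.14, adjusted p = 0.0142), and its groups overlapped broadly. Atg14, which directs the complex to the site of autophagosome formation, changed by 0.44 ± 0.14 and Pik3r4, the regulatory kinase-like subunit, by -0.31 ± 0.11 (adjusted p = 0.0124 and 0.026). Pik3r4 lay at 11.4 to 18.6 (median 14.1) CPM in AL and 9.48 to 15.2 (median 12.9) CPM in IF livers, so most IF mice fell inside the AL range. Atg14 and Pik3r4 were not called with the erythrocyte covariate, and Becn1 and Pik3r4 were not called with the 3 IF livers chosen after seeing the data. Ambra1, a regulator of Beclin 1, did not pass, at 29.2 to 37.7 (median 30.4) CPM in AL and 23.03 to 69.05 (median 40.2) CPM in IF livers.

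Female livers gave another picture for this complex. Uvrag was at 10.6 to 19.6 (median 16.8) CPM in AL and 14.03 to 17.1 (median 16) CPM in IF mice, Pik3c3 at 7.98 to 13.2 (median 11.3) and 7.11 to 12.2 (median 10.1) CPM, and Becn1 at 17.9 to 27.6 (median 20.98) and 10.6 to 27.5 (median 20.2) CPM. AL and IF mice overlapped over most of the range for all of them. The female response was lower than the male one by a difference of -0.78 ± 0.16 for Uvrag (adjusted p = 0.000399), -0.77 ± 0.19 for Pik3c3 (0.0023) and -0.58 ± 0.20 for Becn1 (0.0352).

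In male muscle Pik3c3 was the member of this complex that passed, at 8.65 to 12.9 (median 11.4) CPM in AL and 13.7 to 16.2 (median 15.3) CPM in IF mice (0.40 ± 0.08, adjusted p = 0.00102), again with all IF mice above all AL mice. Uvrag in muscle was at 7.81 to 10.5 (median 9.74) CPM in AL and 9.40 to 11.7 (median 11.1) CPM in IF males, and at 8.25 to 14.1 (median 10.4) and 7.53 to 10.4 (median 7.90) CPM in females. All female IF mice lay below the AL median of the females, and most male IF mice above that of the males. The 2 responses differed by -0.41 ± 0.12 (adjusted p = 0.0163). Compared with liver, the male muscle response was lower for Uvrag (-0.67, adjusted p = 0.00137), Becn1 (-0.51, 0.031) and Ambra1 (-0.40, 0.0399), and higher for Pik3r4 (0.41, 0.0306). Male muscle held 23.99 to 35.95 (median 27.2) CPM of Becn1 in AL and 27.1 to 31.6 (median 28.6) in IF mice, 16.2 to 21.1 (median 18.8) and 12.01 to 20.5 (median 17.4) CPM of Ambra1, and 7.98 to 11.2 (median 9.33) and 8.13 to 12.3 (median 11.02) CPM of Pik3r4. All 3 overlapped between the diets in muscle.

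In male cortex Uvrag and Ambra1 rose. Uvrag lay at 25.8 to 39.3 (median 32.05) CPM in AL and 32.8 to 45.5 (median 36.8) CPM in IF mice (0.27 ± 0.08, adjusted p = 0.0479). For Ambra1 the AL mice held 53.4 to 70.3 (median 59.8) CPM and the IF mice 55.8 to 81.7 (median 78.05) CPM (0.29 ± 0.08, adjusted p = 0.0303). Both overlapped between the diets, and for Ambra1 IF mouse 12 stood alone among the low values. Uvrag was thus called in liver and cortex of the males, and no member was called in all 3 tissues.

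In male liver 2 of 5 ATG9, ATG2 and WIPI genes rose, where 23.5% of all genes did, and 1 fell, where 21.1% did. Both lipid transfer genes rose, and of the readers of phosphatidylinositol 3-phosphate Wipi1 fell and Wipi2 did not pass. Atg2a, which moves lipids from the endoplasmic reticulum into the growing membrane, was at 62.8 to 95.1 (median 86) CPM in AL and 79.95 to 191 (median 153) CPM in IF livers (0.71 ± 0.13, adjusted p = 0.000109). Its paralog Atg2b was at 12.4 to 24.5 (median 17.2) and 18.2 to 34.7 (median 26.2) CPM (0.55 ± 0.13, adjusted p = 0.00111). Both overlapped between diets only in their lower IF mice. Wipi1, which binds the lipid mark, fell, with 10.5 to 17.9 (median 11.9) CPM in AL and 7.49 to 12.7 (median 9.66) CPM in IF mice (-0.47 ± 0.14, adjusted p = 0.00765), again with overlap, a call lost with the erythrocyte covariate. Its paralog Wipi2 changed by 0.06 ± 0.09 and Atg9a, which encodes a membrane protein of the vesicles that seed autophagosomes, by -0.26 ± 0.48, and neither passed.

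In female livers Atg2a lay at 78.5 to 136 (median 96.4) CPM in AL and 74.9 to 110.5 (median 90.6) in IF mice, Atg2b at 16.6 to 21.6 (median 17.5) and 14.5 to 20.98 (median 16.5), and Wipi1 at 7.69 to 15.05 (median 11.2) and 7.66 to 16.2 (median 10.6). The diets overlapped over most of their range for all of them. Against the males, the female response was lower for Atg2a (-0.71 ± 0.18, adjusted p = 0.003) and Atg2b (-0.57 ± 0.16, 0.0078) and higher for Wipi1 (0.64 ± 0.21, 0.0245).

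Wipi1 fell in male muscle too, with 42.8 to 53.8 (median 48.1) CPM in AL and 37.5 to 51.3 (median 42.6) CPM in IF mice (-0.21 ± 0.06, adjusted p = 0.0142), with overlap. Atg2a in muscle was at 31.5 to 37.1 (median 34.3) CPM in AL and 27.9 to 39.8 (median 33.6) CPM in IF males, and at 29.9 to 37.99 (median 35.2) and 31.6 to 42.4 (median 36.7) CPM in females. No diet separated in either set, while the difference between the sets was 0.29 ± 0.10 (adjusted p = 0.0359). The muscle scaling given above runs in the same direction as that difference, and its share in it was not tested. The muscle response of Atg2a was below that of liver by a difference of -0.80 ± 0.15 (adjusted p = 0.000318) and that of Atg2b by -0.52 ± 0.16 (adjusted p = 0.0163), with Atg2b in muscle at 9.80 to 13.2 (median 11.3) and 9.48 to 13.95 (median 12.2) CPM. Wipi2 was the member with the lowest p in male cortex, at 109 to 134 (median 124) CPM in AL and 116 to 160.0 (median 146) CPM in IF mice (0.28 ± 0.07, adjusted p = 0.017). All IF mice but mouse 12 lay above every AL mouse.

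Among the conjugation genes, 3 of 7 fell, where 21.1% of all genes did, and 2 rose, where 23.5% did, in male liver. Atg3, which transfers ATG8 proteins to phosphatidylethanolamine, was at 57.3 to 69.95 (median 63.9) CPM in AL and 29 to 47.1 (median 43.6) CPM in IF livers, a change of -0.71 ± 0.11 (adjusted p = 1.95e-05). Every IF liver lay below every AL liver. Atg5, to which ATG12 is coupled, fell, with 19.2 to 34.3 (median 23.1) CPM in AL and 12.8 to 24.1 (median 15.4) CPM in IF mice (-0.57 ± 0.15, adjusted p = 0.00313). Atg7, the activating enzyme of both conjugation branches, fell, with 46.2 to 60.8 (median 51.2) CPM in AL and 37.2 to 49.7 (median 42.3) CPM in IF mice (-0.40 ± 0.11, adjusted p = 0.00365). Atg7 overlapped at the edges, Atg5 overlapped over much of the AL range, and AL mouse 2 stood alone at the top for Atg5. The call for Atg7 was lost with the erythrocyte covariate (adjusted p = 0.306) and with the 3 IF livers (0.15).

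Atg12 and Atg16l1 rose in the same livers. Atg12, the ubiquitin-like partner of ATG5, was at 7.02 to 15.2 (median 12.3) CPM in AL and 14.4 to 23.7 (median 20.2) CPM in IF livers (0.69 ± 0.14, adjusted p = 0.000253), and the highest AL mouse only just exceeded the lowest IF mouse. Atg16l1, which places the ATG12 conjugate on membranes, changed by 0.35 ± 0.13 (adjusted p = 0.0264), with AL mouse 5 alone above the other AL mice, and was not called with the 3 IF livers (adjusted p = 0.114). Its homolog Atg16l2, at -0.32 ± 0.15, and Atg10, the conjugating enzyme of ATG12, at -0.30 ± 0.31, did not pass.

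In female livers Atg3 lay at 67.7 to 92.5 (median 79.6) CPM in AL and 57.6 to 81.9 (median 66.7) CPM in IF mice, Atg7 at 44.7 to 64.1 (median 56.3) and 40.5 to 59.4 (median 52.5), and Atg12 at 8.22 to 19.5 (median 12.6) and 7.87 to 18.1 (median 11.05). All of them overlapped between the diets. Against the male response the female one was higher for Atg3 (0.58 ± 0.16, adjusted p = 0.00586) and Atg7 (0.40 ± 0.15, 0.048) and lower for Atg12 (-0.72 ± 0.24, 0.0271). The call for Atg7 was lost with RLE size factors, at an adjusted p of 0.0548.

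No conjugation gene passed in male muscle, by edgeR or DESeq2, where 23.0% of all genes did by edgeR. At an unadjusted p under 0.05 there was 1, beside 35.3% of all genes. There Atg3 held 22.3 to 30.1 (median 26.02) CPM in AL and 24.9 to 28.03 (median 26.4) in IF mice, Atg5 7.78 to 11.7 (median 10.1) and 8.13 to 11.3 (median 10.1), and Atg12 17.2 to 27.6 (median 20.9) and 18.2 to 22.2 (median 20.6). The diets overlapped for each of these genes. The muscle response exceeded that of liver for Atg3 (0.67 ± 0.14, adjusted p = 0.000676) and Atg5 (0.49 ± 0.17, 0.0323) and was below it for Atg12 (-0.80 ± 0.20, 0.00388).

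The ATG4 proteases trim ATG8 proteins before conjugation and release them afterwards. In male liver 2 of 4 rose, where 23.5% of all genes did, and 1 fell, where 21.1% did. The other, Atg4c, did not pass. Atg4b was at 10.2 to 19.5 (median 14.95) CPM in AL and 21.8 to 28.4 (median 23.7) CPM in IF livers of the males (0.59 ± 0.11, adjusted p = 7.79e-05). Atg4d was at 14.3 to 28.7 (median 27.1) and 29.5 to 41.1 (median 37.2) CPM (0.47 ± 0.11, adjusted p = 0.00118). All IF mice lay above all AL mice for both, and AL mouse 6 stood alone at the bottom for Atg4d. Atg4a fell, with 4.88 to 11.9 (median 8.10) CPM in AL and 4.05 to 8.49 (median 6.29) CPM in IF mice (-0.51 ± 0.18, adjusted p = 0.0221), with overlap, and missed the threshold without IF mice 9 and 10 (adjusted p = 0.0561), a choice made after seeing the data. Atg4a shares 15.8% of its 100-base windows with Atg4a-ps, which held at most 0.395 CPM, so its count is uncertain to that extent.

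Atg4d went the other way in male muscle. Its level was 65.96 to 75.7 (median 69.4) CPM in AL and 47.97 to 61.6 (median 54.6) CPM in IF muscles, a fall of -0.42 ± 0.06 (adjusted p = 1.83e-05). Every IF muscle was below every AL muscle. The muscle response minus the liver response was -0.89 ± 0.13 (adjusted p = 2.85e-05), a call that also held with RLE size factors. In females, AL and IF mice held 32 to 48.3 (median 38.5) and 33.8 to 40.4 (median 37.6) CPM of Atg4d in liver and 54.02 to 64.5 (median 58.98) and 54.7 to 69.6 (median 61.6) CPM in muscle. Those diets overlapped in both tissues, and the female response differed from the male one by -0.47 ± 0.13 in liver (adjusted p = 0.00921) and by 0.57 ± 0.09 in muscle (adjusted p = 9.1e-05). Atg4b in male muscle lay at 19.7 to 21.6 (median 20.7) CPM in AL and 18.3 to 26.1 (median 23.4) CPM in IF mice, and Atg4a at 20.1 to 26.4 (median 22.4) and 19.6 to 31.6 (median 24.4). Neither separated the diets, and muscle minus liver was -0.50 ± 0.13 for Atg4b (adjusted p = 0.00517) and 0.58 ± 0.20 for Atg4a (adjusted p = 0.0339).

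The ATG8 family, whose lipid-bound proteins coat the autophagosome, rose in male liver for 4 of 5 genes, where 23.5% of all genes did, with a median change of 0.71. Map1lc3a, an LC3 gene, had 23.1 to 37.7 (median 30.02) CPM in AL and 65.4 to 92.8 (median 79.96) CPM in IF livers, a rise of 1.29 ± 0.12 (adjusted p = 6.15e-09), or 2.45-fold. Gabarapl1 had 79.2 to 124 (median 110.3) CPM in AL and 187 to 284 (median 233) CPM in IF livers, a rise of 1.08 ± 0.12 (adjusted p = 1.09e-07). Map1lc3b, the LC3 gene most used as a marker of autophagosomes, had 56.4 to 83.5 (median 67.2) and 104 to 142 (median 114) CPM (0.71 ± 0.10, adjusted p = 4.29e-06). For these 3 genes the lowest IF liver exceeded the highest AL liver. Gabarap rose, with 101 to 159 (median 119) CPM in AL and 142 to 217 (median 181) CPM in IF mice with overlap (0.42 ± 0.12, adjusted p = 0.00824), and Gabarapl2 did not pass at 0.20 ± 0.12. Gabarap was not called with the erythrocyte covariate (adjusted p = 0.24) or with the 3 IF livers (0.0649). Map1lc3b shares 2.44% of its windows with 4 other gene models, of which Gm6055 reached 5.24 CPM in liver.

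In female livers none of these genes passed between the diets. Map1lc3a had 13.9 to 38.9 (median 24.7) CPM in AL and 17.5 to 42.1 (median 24.8) CPM in IF mice, Map1lc3b 65.4 to 106 (median 91.1) and 82.9 to 114 (median 101), and Gabarapl1 104 to 309 (median 220.4) and 146 to 253 (median 205). The diets overlapped for all of them, and among the AL livers mice 26, 27 and 31 were low for Gabarapl1 and the other 5 high. The female response minus the male one was -1.0 ± 0.27 for Map1lc3a (adjusted p = 0.00609), -1.0 ± 0.26 for Gabarapl1 (0.0035) and -0.46 ± 0.16 for Map1lc3b (0.0295). With a coefficient of variation of 38.5%, Gabarapl1 was the most variable member among the female AL livers.

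**Figure D3:**
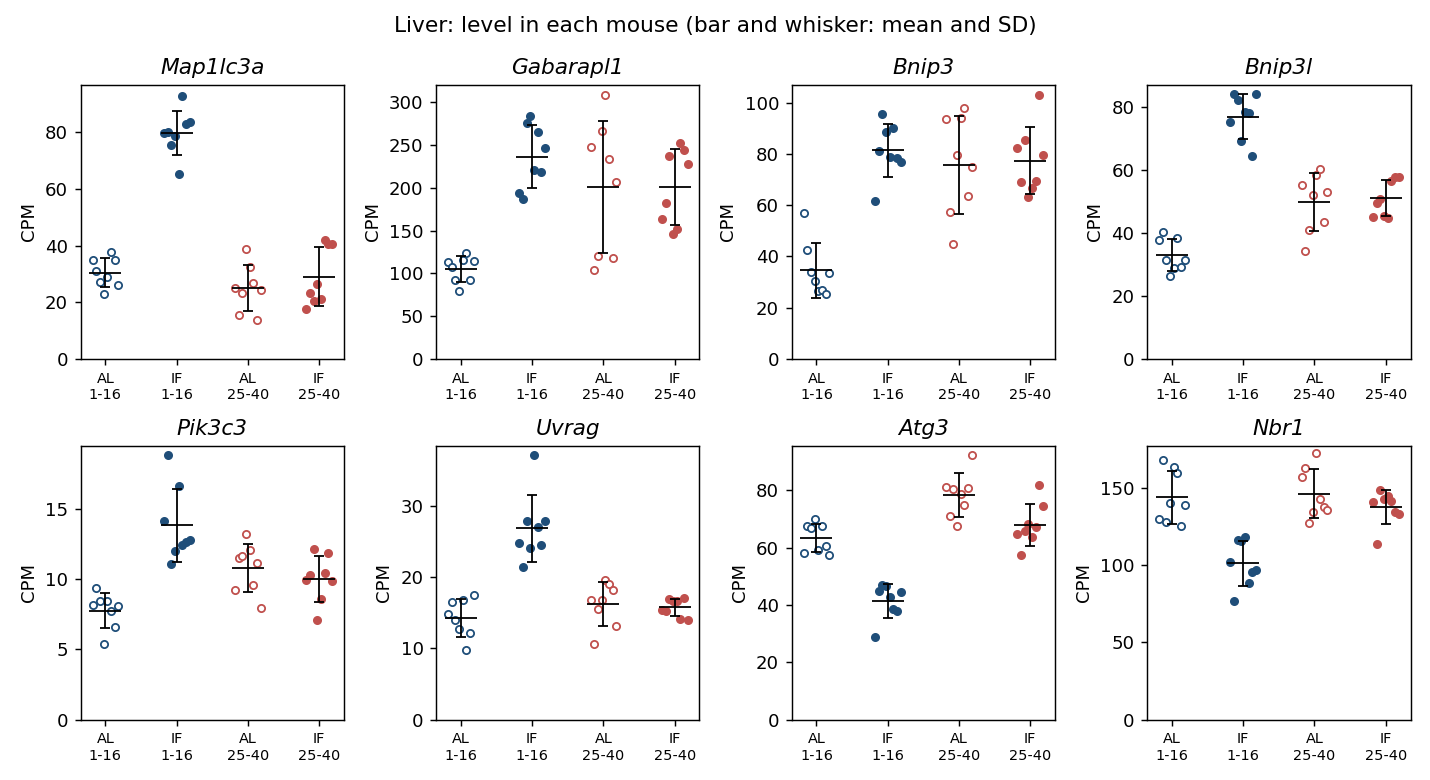
Level in CPM of 8 members in the liver of each mouse, AL (open) and IF (filled), mice 1-16 in blue and mice 25-40 in red, with bar and whisker for mean and SD of 8 mice. In mice 1-16 the groups are apart in all 8 panels, as for Map1lc3a with at most 37.7 CPM in AL and at least 65.4 CPM in IF mice, and in mice 25-40 they overlap.

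In male muscle Gabarapl1 rose and Map1lc3a fell. Gabarapl1 was at 46.4 to 73.1 (median 51.7) CPM in AL and 65.2 to 112 (median 78.3) CPM in IF muscles (0.47 ± 0.10, adjusted p = 0.00125), where AL mouse 5 reached into the IF range and IF mouse 12 stood alone above. The rise of Gabarapl1 was not called with the adipocyte covariate. Map1lc3a was at 275 to 419.7 (median 341) CPM in AL and 187 to 352 (median 293) CPM in IF muscles (-0.33 ± 0.11, adjusted p = 0.0447), with wide overlap. That fall missed the threshold without AL mouse 2 and IF mouse 10 (adjusted p = 0.0925) and with all genes of at least 1 count tested (0.116). The muscle response was below the liver response by a difference of -1.62 ± 0.17 for Map1lc3a (adjusted p = 6.11e-07), the most negative of all members.

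For the other ATG8 genes muscle and liver also differed. Muscle minus liver was -0.59 ± 0.13 for Map1lc3b (adjusted p = 0.00181), -0.59 ± 0.15 for Gabarapl1 (0.00558) and -0.51 ± 0.16 for Gabarap (0.0178). Male muscle held 179.6 to 225 (median 189) CPM of Map1lc3b in AL and 189 to 247 (median 219) in IF mice, and 172 to 219 (median 199) and 161 to 234 (median 185) CPM of Gabarap. Both overlapped between the diets. In female muscle Gabarapl1 lay at 36.3 to 87.2 (median 48.6) CPM in AL and 37.1 to 74.5 (median 43.9) CPM in IF mice, with AL mouse 28 and IF mouse 36 alone above their groups. Its female response was lower than the male one (-0.56 ± 0.19, adjusted p = 0.0411). In male cortex changes of the family lay between -0.09 and 0.05, and none passed by edgeR, where 7.21% of all genes did. At an unadjusted p under 0.05 there were 0, beside 23.8% of all genes.

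In male liver 3 of 5 receptor genes rose, where 23.5% of all genes did, and 1 fell, where 21.1% did. The mitochondrial receptors Bnip3 and Bnip3l moved most among them there. Bnip3, a mitochondrial outer membrane protein that binds ATG8 proteins, was at 25.5 to 57.02 (median 32) CPM in AL and 61.8 to 95.6 (median 79.9) CPM in IF livers of the males, a rise of 1.15 ± 0.15 (adjusted p = 7.2e-07). Its homolog Bnip3l, which clears mitochondria in maturing red cells among other settings, was at 26.3 to 40.2 (median 31.5) and 64.6 to 84.2 (median 78.4) CPM, a rise of 1.13 ± 0.11 (adjusted p = 1.24e-08). All IF livers lay above all AL livers for both. Nbr1, a receptor for ubiquitin-tagged cargo, fell, with 125 to 168 (median 139) CPM in AL and 76.7 to 118 (median 99.3) CPM in IF mice, with every IF liver below every AL liver (-0.61 ± 0.10, adjusted p = 2.25e-05). Sqstm1, which binds ubiquitin and ATG8 proteins and is itself degraded by autophagy, rose, with 221 to 336 (median 267) CPM in AL and 309 to 421 (median 374) CPM in IF mice with overlap (0.33 ± 0.11, adjusted p = 0.0162), and was not called with the erythrocyte covariate (adjusted p = 0.175). Optn, a receptor for ubiquitin-tagged mitochondria, did not pass at 0.07 ± 0.09. Bnip3l shares 7.87% of its windows with 2 gene models, of which Bnip3l-ps held 0.28 to 1.97 CPM in liver.

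Female livers held 45.03 to 97.8 (median 77.2) CPM of Bnip3 in AL and 63.04 to 103 (median 74.6) CPM in IF mice, 34.2 to 60.5 (median 52.6) and 44.9 to 57.95 (median 50.2) CPM of Bnip3l, and 127 to 172 (median 140.4) and 114 to 149 (median 141) CPM of Nbr1. For all of these the diets overlapped, and the female AL livers of Bnip3 reached well into the range of male IF livers. Female minus male response was -1.04 ± 0.22 for Bnip3 (adjusted p = 0.000448), -1.02 ± 0.17 for Bnip3l (1.57e-05) and 0.59 ± 0.13 for Nbr1 (0.00107).

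In male muscle Bnip3, Bnip3l and Optn rose. Bnip3 was at 60.96 to 95.5 (median 78.4) CPM in AL and 99.9 to 157 (median 129.5) CPM in IF muscles (0.60 ± 0.10, adjusted p = 0.000171). Bnip3l was at 42.4 to 64.1 (median 52.8) and 62.3 to 73.1 (median 67.5) CPM (0.27 ± 0.06, adjusted p = 0.00275) and Optn at 51.03 to 70.3 (median 58.7) and 60.2 to 88.1 (median 75.1) CPM (0.27 ± 0.08, adjusted p = 0.0146). All IF muscles exceeded all AL muscles for Bnip3, while Bnip3l and Optn overlapped at the edges. Muscle minus liver was -0.57 ± 0.19 for Bnip3 (adjusted p = 0.0296), -0.84 ± 0.13 for Bnip3l (4.2e-05) and 0.75 ± 0.12 for Nbr1 (6.96e-05), where Nbr1 in muscle held 41.6 to 52.7 (median 47.5) CPM in AL and 47.6 to 62.9 (median 54.6) CPM in IF mice.

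Female muscle differed from male muscle for both mitochondrial receptors. Bnip3 lay at 86.5 to 201 (median 117) CPM in AL and 79.2 to 174 (median 96.8) CPM in IF females, and Bnip3l at 71.7 to 80.1 (median 76.7) and 58.4 to 71.9 (median 65.4) CPM. Medians were lower in IF mice with overlap in each, and AL mouse 28 and IF mouse 36 had the highest Bnip3 values of their groups, as they had for Gabarapl1 and Optn. The female response minus the male one was -0.75 ± 0.19 for Bnip3 (adjusted p = 0.00692) and -0.41 ± 0.08 for Bnip3l (adjusted p = 0.00066).

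**Figure D4:**
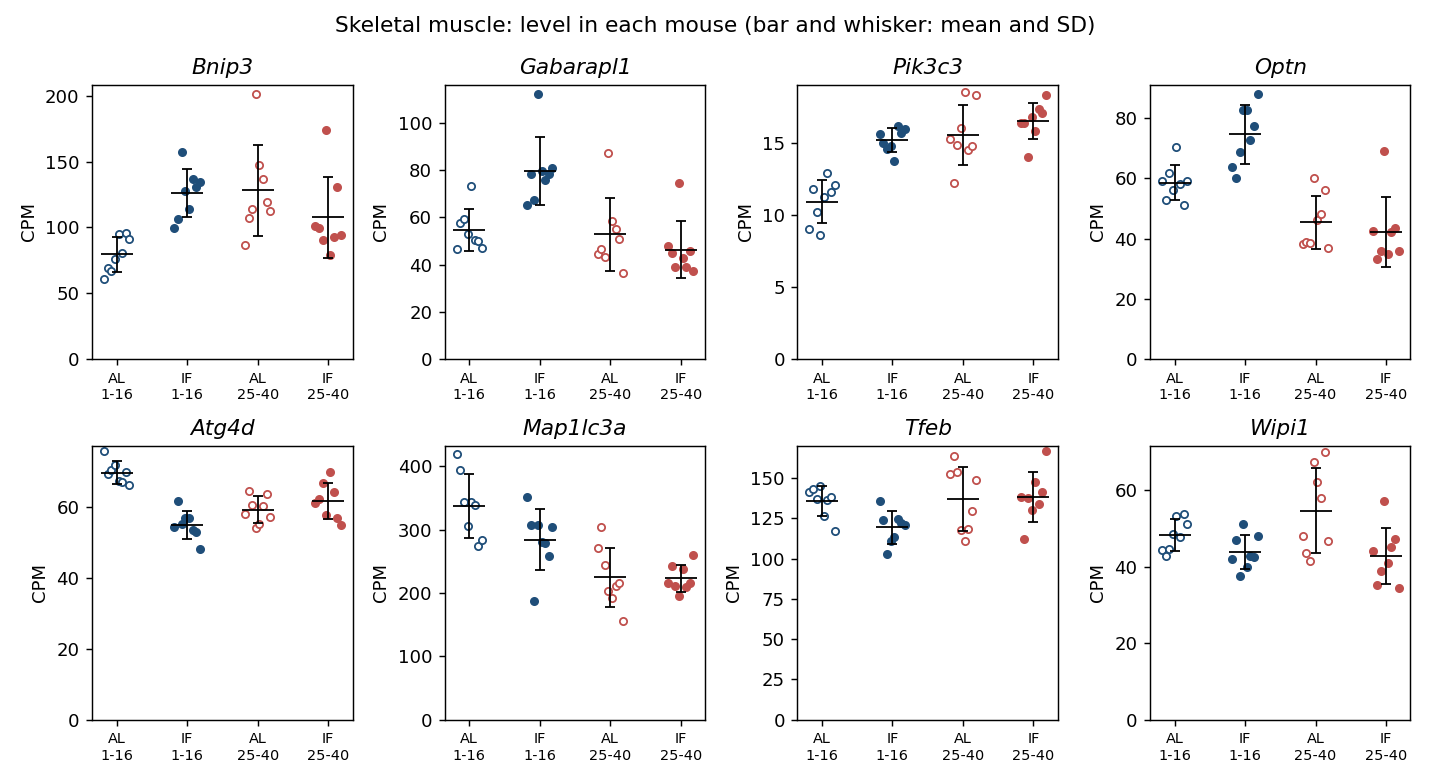
Level in CPM of 8 members in the skeletal muscle of each mouse, AL (open) and IF (filled), mice 1-16 in blue and mice 25-40 in red, with bar and whisker for mean and SD of 8 mice. In mice 1-16 the groups are apart for Bnip3, Pik3c3 and Atg4d, with Atg4d at no less than 66.0 CPM in AL and no more than 61.6 CPM in IF mice.

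Of the transcription factors, Tfeb moved in opposite directions in the 2 tissues of the males. In liver it lay at 15.1 to 21.6 (median 17.95) CPM in AL and 23.04 to 31.6 (median 26.8) CPM in IF mice, with all IF above all AL mice (0.49 ± 0.10, adjusted p = 0.000323). In muscle, where its level is higher, it fell, with 117 to 145 (median 137) CPM in AL and 103 to 135 (median 122) CPM in IF mice, with overlap (-0.26 ± 0.06, adjusted p = 0.0062). The difference between the tissues was -0.73 ± 0.11 (adjusted p = 2.52e-05). Tfe3, its relative, did not pass in liver (-0.04 ± 0.10), muscle (-0.17 ± 0.10) or cortex (0.17 ± 0.07) of the males by edgeR. With Map1lc3a and Atg4d, Tfeb makes up the members that were called in opposite directions in liver and muscle, and no setting tried turned any of these directions.

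Other genes of the pathway were taken from lists of 95 genes, chosen with earlier results of these data known. Their shares beside those of all genes are therefore a description. In male liver 40 of the 94 tested rose, beside 23.5% of all genes, and 10 fell, beside 21.1%, with a median change of 0.22. In male muscle 24 of 93 rose, beside 11.5%, and 13 fell, beside 11.6% (median 0.05). In male cortex 15 of 93 rose, beside 3.79%, and 2 fell, beside 3.43% (median 0.03). The cortex calls have the limits given for the members there, since the calls over all genes went from 1332 to 0 with the oligodendrocyte covariate, to 294 with AL mouse 1 kept and to 498 without AL mouse 2 and IF mouse 10. In the females none passed by edgeR. At an unadjusted p under 0.05 there were 6 of 94 in liver, beside 5.77% of all genes, 12 of 92 in muscle, beside 10.7%, and 5 of 93 in cortex, beside 11.2%, shares near or below those of all genes. By group in male liver, 9 of 19 other cargo receptors, 8 of 14 tethering and fusion genes, 10 of 26 genes of mTORC1 and its inputs, 9 of 26 transcriptional regulators and lysosomal genes and 4 of 9 other initiation genes rose, where 23.5% of all genes did.

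The largest of these changes in male liver were those of Retreg2, a receptor for endoplasmic reticulum, with 50.01 to 85.6 CPM (median 55.0) in AL and 164 to 255 CPM (median 206) in IF mice (1.69 ± 0.12, adjusted p = 7.42e-11). Stbd1, which tethers glycogen to autophagosomes, had 13.3 to 35.4 CPM (median 23.5) and 51.6 to 71.6 CPM (median 60.4), a change of 1.35 ± 0.14 (adjusted p = 4.62e-08). Neither overlapped between the diets. Castor2, of the family of arginine sensors upstream of mTORC1, fell, with 8.54 to 15.2 CPM (median 11.7) in AL and 3.40 to 5.85 CPM (median 4.79), a change of -1.39 ± 0.14 (adjusted p = 2.66e-08). Atp6v1h, a subunit of the proton pump of the lysosome, fell, with 54.5 to 93.6 CPM (median 66.4) in AL and 29.7 to 42.4 CPM (median 34.2), a change of -1.10 ± 0.14 (adjusted p = 5.71e-07). Both were free of overlap as well.

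In male muscle Depp1, a gene induced by FOXO factors, held 3.46 to 6.16 CPM (median 4.42) in AL and 19.5 to 64.2 CPM (median 45.0) in IF mice (3.14 ± 0.25, adjusted p = 9.14e-07). Ddit4, an inhibitor of mTORC1, held 4.46 to 7.01 CPM (median 5.75) and 13.8 to 79.3 CPM (median 43.8), a change of 2.88 ± 0.31 (adjusted p = 1.41e-05). No IF muscle came down to the AL range for either gene. Falls were led by Sgsh, a lysosomal sulfatase (-0.57 ± 0.15, adjusted p = 0.00826, AL 3.05 to 5.31 with median 4.497 and IF 2.12 to 3.79 with median 3.26 CPM), and Rubcn, a negative regulator of the PI3-kinase complex (-0.44 ± 0.06, adjusted p = 4.84e-05, AL 27.3 to 35.4 with median 30.6 and IF 20.4 to 25.6 with median 24.4 CPM). Sgsh overlapped and Rubcn did not.

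The same pair rose in male cortex, Depp1 with 1.13 to 2.91 CPM (median 1.68) in AL and 2.42 to 5.04 CPM (median 3.91), a change of 1.01 ± 0.21 (adjusted p = 0.00923), and Ddit4 with 25.5 to 39.3 CPM (median 29.5) in AL and 33.5 to 64.4 CPM (median 51.6), a change of 0.68 ± 0.12 (adjusted p = 0.00559). Both overlapped. Fundc1, a mitochondrial receptor, fell, with 34.5 to 37.8 CPM (median 34.7) in AL and 28.6 to 33.4 CPM (median 30.04) without overlap (-0.23 ± 0.05, adjusted p = 0.0129). Rheb, the activator of mTORC1, fell, with 131 to 166 CPM (median 148) in AL and 118 to 137 CPM (median 125) with overlap (-0.22 ± 0.06, adjusted p = 0.0228). None of these 4 cortex calls remained with the oligodendrocyte score as a covariate.

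The remaining marker lists showed no difference between diets at an adjusted p under 0.05 over the 66 tests. In the exact permutation tests the lowest adjusted p was 0.472 for macrophage and for lymphocyte markers, 0.495 for hepatocyte markers, 0.0728 for neuron markers and 0.194 for microglia markers, over tissues and mouse sets.

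Promoter sequences were looked up for letters that TFEB and TFE3 are known to bind. Windows of 300 bases, from 250 before to 50 after a gene start, came from RefSeq on GRCm38.p6, and 32 of the 39 members had at least 1. Rb1cc1, Becn1, Pik3c3, Atg12, Atg16l1, Map1lc3a and Bnip3l had no entry. The motif CACGTG, which reads the same on both strands, occurred in 5 members (Atg14, Atg3, Atg5, Atg7 and Bnip3), beside 8.09% of 27025 gene symbols and 7.15% of all 32851 windows. The longer TCACGTGA, which contains CACGTG and also equals its reverse complement, occurred in Atg3 alone among the members, beside 1.12% of gene symbols and 0.974% of all windows.

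The 5 members with the motif went both ways in male liver, where Atg3, Atg5 and Atg7 fell and Bnip3 and Atg14 rose. The promoters of Atg3 (chr16:45158579-45158878, plus strand), Atg5 (chr10:44268089-44268388, plus strand) and Bnip3 (chr7:138909457-138909756, minus strand) are printed to show falling and rising members that share these letters. Sequences are RefSeq GRCm38.p6, 5′ to 3′ on the strand of the gene, with the motifs in capitals.
Atg3: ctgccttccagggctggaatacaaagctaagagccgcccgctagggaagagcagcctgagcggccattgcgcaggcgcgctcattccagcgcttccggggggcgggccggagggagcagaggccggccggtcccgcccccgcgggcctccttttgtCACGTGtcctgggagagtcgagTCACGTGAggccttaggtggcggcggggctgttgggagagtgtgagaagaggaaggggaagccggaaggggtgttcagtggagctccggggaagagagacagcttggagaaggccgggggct
Atg5: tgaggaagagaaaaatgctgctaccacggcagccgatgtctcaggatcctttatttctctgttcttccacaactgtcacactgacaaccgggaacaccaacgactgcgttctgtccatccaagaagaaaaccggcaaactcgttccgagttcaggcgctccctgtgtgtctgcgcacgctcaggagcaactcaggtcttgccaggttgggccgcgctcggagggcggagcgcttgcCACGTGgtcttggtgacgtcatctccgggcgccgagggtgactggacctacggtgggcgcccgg
Bnip3: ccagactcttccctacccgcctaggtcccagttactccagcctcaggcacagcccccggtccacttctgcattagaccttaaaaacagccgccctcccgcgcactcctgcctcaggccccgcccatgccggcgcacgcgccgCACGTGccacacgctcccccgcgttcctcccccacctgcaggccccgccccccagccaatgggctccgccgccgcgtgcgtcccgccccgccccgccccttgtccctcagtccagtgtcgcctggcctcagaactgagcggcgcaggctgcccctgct
In Atg3 the capitals mark CACGTG, starting 94 bases before the gene start, and TCACGTGA, starting 72 bases before it. The Atg5 match starts 14 bases and the Bnip3 match 108 bases before the gene start. A match is a description of letters, and binding at these places was not measured here.

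Gene models near members limit some counts. Another gene of the table overlaps 19 of the 39 members in position, for 6 of them on the same strand, and whether strand was used in counting is not given in the sources used here. Ankzf1, on the strand opposite Atg9a, held 15.7 to 80.6 CPM in liver, where Atg9a had a median of 6.34 CPM. Whether the count of Atg9a there holds reads of Ankzf1 was not tested. In muscle Ankzf1 held at most 8.11 CPM and Atg9a a median of 36.1 CPM.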

How the data were processed

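The deposited table holds raw gene counts, which the authors made from paired-end, strand-directional, poly-A RNA-seq reads aligned to GRCm39 with HISAT2 and counted with featureCounts, and it carries a gene length column used here for levels per kilobase. Libraries held 26097314 to 49838004 counts, at which 1 CPM is about 26 to 50 counts. Mice are the replicates, with 1 library per mouse and tissue, and the numbers in the sample titles do not join AL and IF animals. The members and lists were chosen with earlier results of these data known.

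CPM was computed from raw counts without further scaling. Fold changes used TMM factors in edgeR 4.0.16 (R 4.3.3, limma 3.58.1), with genes kept by filterByExpr (minimum count 10, minimum total count 15), the robust quasi-likelihood F-test and Benjamini-Hochberg adjustment over all genes tested. Diets were compared within tissue and mouse set. Differences between mouse sets were interaction terms within a tissue, and differences between muscle and liver were interaction terms with mouse as a block. The code was tested on simulated counts. Tables and figures were made with Python 3.11.15, pandas 2.3.3 and matplotlib 3.10.9.

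Members given in full are the 6 with the largest changes among those called per tissue and mouse set, members called in opposite directions, and members whose difference between responses was called. Other members are named to complete a role and were chosen after their values were seen. Of other pathway genes, the 2 largest called changes per direction and tissue are given.

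Alternatives were RLE size factors, DESeq2 1.42.0, all genes with at least 1 count, a mean of at least 1 CPM, marker scores as covariates, libraries left out or kept, a change of at least 1.5-fold, and an unadjusted p under 0.05. Leaving out AL mouse 2 and IF mouse 10 follows the proteome tables of the study, which lack these numbers. Other left-out libraries were chosen after seeing the data. Lists of erythrocyte, adipocyte, macrophage, endothelial, lymphocyte, hepatocyte, skeletal muscle fibre, neuron, astrocyte, oligodendrocyte and microglia genes were scored as mean log2 of CPM plus 1, and diets compared by exact permutation (66 tests, adjusted together).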

Additional observations from a re-analysis of the deposited data

Results flagged for a closer look

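In 12 of 144 groups examined, 1 library stood apart from the rest, measured as its gap to the nearest library over the range of the group (Dixon's ratio). By chance about 1 in 20 groups would do so. In male liver these were IF mouse 13 for Ulk1 (0.549) and Uvrag (0.585), AL mouse 2 for Atg5 (0.612), AL mouse 5 for Atg16l1 (0.616) and AL mouse 6, the lowest, for Atg4d (0.647). In female liver IF mouse 34 was lowest for Atg7 (0.581) and Nbr1 (0.548). In muscle Gabarapl1 was highest in IF mouse 12 (0.671), AL mouse 28 (0.567) and IF mouse 36 (0.713). In male cortex IF mouse 12 was lowest for Ambra1 (0.612) and Wipi2 (0.553).

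The response to fasting differed between groups of mice or tissues for 43 pairs of member and comparison, as log2 differences. None of these differences was tested with a marker score as a covariate, including those of members whose liver or muscle call was lost with one. Female minus male in liver gave Becn1 -0.58, Pik3c3 -0.77, Uvrag -0.78, Atg2a -0.71, Atg2b -0.57, Wipi1 0.64, Atg3 0.58, Atg7 0.40, Atg12 -0.72, Atg4d -0.47, Map1lc3a -1.0, Map1lc3b -0.46, Gabarapl1 -1.0, Nbr1 0.59, Bnip3 -1.04 and Bnip3l -1.02. The same difference in muscle gave Atg101 0.45, Uvrag -0.41, Atg2a 0.29, Atg4d 0.57, Gabarapl1 -0.56, Bnip3 -0.75 and Bnip3l -0.41. Muscle minus liver in males gave Becn1 -0.51, Pik3r4 0.41, Uvrag -0.67, Ambra1 -0.40, Atg2a -0.80, Atg2b -0.52, Atg3 0.67, Atg5 0.49, Atg12 -0.80, Atg4a 0.58, Atg4b -0.50, Atg4d -0.89, Map1lc3a -1.62, Map1lc3b -0.59, Gabarap -0.51, Gabarapl1 -0.59, Nbr1 0.75, Bnip3 -0.57, Bnip3l -0.84 and Tfeb -0.73.

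The cortex library of AL mouse 1, which was not used, held 213.3 CPM of Xist against its male label.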

How the results depend on the processing

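No call in the males turned direction under any alternative. Some calls were lost in each tissue, and all 3 in cortex were lost under 4 of the alternatives below and, apart from the 1.5-fold threshold, kept under the others. In liver, 20 to 27 members passed at the adjusted p, with 28 at an unadjusted p, beside 51.4% of all genes. A change of at least 1.5-fold gave 12, and the share of all genes at that threshold is not given here for any tissue. All genes called went from 7234 to 4013 with the erythrocyte covariate. Without AL mouse 2 and IF mouse 10, 25 passed, without Atg101, Atg16l1 and Pik3r4, beside 6965 of all genes. In muscle 9 to 12 passed, with 13 at an unadjusted p and 1 at 1.5-fold, and Ulk1 missed with 3 IF muscles within the AL range of the adipocyte score (adjusted p = 0.0726), a choice made after seeing the data.

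In male cortex, against 3 members, RLE gave 5, DESeq2 7, a mean of at least 1 CPM 5, an unadjusted p 14, a change of 1.5-fold 0 and leaving out AL mouse 7, chosen after seeing the data, 7. Against 1332 genes, DESeq2 called 2259. The oligodendrocyte covariate gave 0 members and 0 genes, leaving out AL mouse 2 and IF mouse 10 gave 0 and 498, and keeping the library of AL mouse 1 gave 0 and 294. The cause was not tested.

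In females DESeq2 called 6 genes in liver (0 by edgeR), 91 in muscle (1) and 73 in cortex (2), while testing all genes with at least 1 count gave 5 in muscle. In cortex the covariate gave 1 gene, and leaving out IF mouse 36, chosen after seeing the data, 1. An unadjusted p gave 7 members in muscle and 5 in cortex.

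Replicate numbers in the titles join different animals. Correlations of samples sharing a number ran from -0.434 to 0.309 in male cortex, with 1 of 7 pairs over 0.1. In female muscle they reached 0.479, and 4 of 8 pairs lay over 0.1 there and in female cortex. No more than 2 samples per comparison matched their own number best. With the replicate block, male cortex gave 0 members and 382 genes, and female cortex 0 genes. Male liver then gave 26 members without Pik3r4, beside 7090 of all genes, and male muscle 11, beside 3141.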
